A study of Mus musculus with 14 samples.

Results

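The genes described here are 10 widely used markers of smooth muscle cells and pericytes, measured in epicardium with subepicardium dissected from fetal mouse hearts at E16.5. They were taken by name and not by a rule on their values, though with earlier results of these data known. All 10 were found among the 15894 genes of the expression table. Of these, 5 encode parts or regulators of the smooth muscle contractile apparatus (Acta2, Tagln, Myh11, Cnn1 and Mylk) and 5 are used as pericyte or mural cell markers (Rgs5, Cspg4, Kcnj8, Abcc9 and Notch3). The libraries were made from poly(A) RNA, each from a pool of 2 hearts dissected into a ventral or a dorsal layer. There were 3 ventral and 3 dorsal libraries of female hearts (pools 1 to 3), and 4 ventral (pools 4 to 7) and 3 dorsal libraries (pools 4 to 6) of male hearts. For the remaining library of male pool 7 the labels conflict, with a tissue entry of ventral against a source name and title that say dorsal. It is called the library of unsettled region, it is kept out of the group values, and only alternatives tested it. Levels, correlations and ranges described over all 14 libraries include it. All hearts were untreated and carried the genotype Tbx18Cre, which is called wild type in the study's account of the hearts. Tbx18Cre places the Cre recombinase under the control of Tbx18, a gene of the epicardium and of mural cells, and no group without this allele was analysed here.

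Mural cells cover blood vessels from the outside. Smooth muscle cells wrap arteries and contract through actin and smooth muscle myosin, while pericytes sit on capillaries and share their basement membrane with the endothelium. In the fetal heart many coronary mural cells come from epicardial cells that lose their epithelial character and move inward, and Notch3 in pericytes, bound by Jagged1 on neighbouring cells, takes part in their conversion into arterial smooth muscle. Several of the contractile genes are not exclusive to smooth muscle, since fetal cardiomyocytes also transcribe Acta2, Tagln and Cnn1 for a period of heart development. Expression in a dissected layer is an average over all of its cells, and a lower number of mural cells cannot be told apart from less RNA per mural cell in any value below.

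The table holds normalized CPM, which are read counts scaled to library size, and libraries held between 13918995 and 25221314 reads on listed genes. The layers also differed in markers of other cells. In female hearts 14.5% of all genes tested were called higher ventrally. So were all 10 epicardial genes on a fixed list, 5 of 8 fibroblast genes and 5 of 6 macrophage genes. The same held for 5 of 6 elastic fibre genes of great arteries and valves, and none of 6 blood endothelial genes passed the test. The defining markers of epicardium were present in every group, with the sum of the 10 genes between 256 and 639 normalized CPM in female dorsal libraries and between 1786 and 2913 in female ventral ones. Ventricular cardiomyocyte genes were abundant in all libraries (10 genes, sum between 13571 and 36388 normalized CPM). The list was split in female hearts. Ttn and Ryr2 were called higher ventrally, while the other 8 had a change below 0 and none of these was called. The sum therefore does not stand for each gene of the list. Dorsal library 1 of the female hearts stood apart by its atrial genes, of which the 5 listed summed to 12483 normalized CPM against 493 to 1995 in the other libraries of that group. Ventral library 7 of the male hearts had the lowest sum of the 6 endothelial genes, 95.2 normalized CPM against 388 to 518 in the other 3 male ventral libraries, and the lowest cardiomyocyte sum. The part of these cells in the results that follow was not tested.

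Smooth muscle genes are classically read through CArG boxes, the site bound by serum response factor (SRF) with its partner myocardin, and the Notch3 signal is carried to DNA by RBPJ. Both motifs were searched on both strands of the 250 bases before the RefSeq transcription start of each gene (build GRCm38.p6). An entry was found for 8 of the 10 genes, with none for Tagln and Myh11. No exact CArG box (CC, a run of 6 A or T letters, GG) lay in the 8 windows, whereas 1.47% of all 32851 windows held it. A relaxed rule, added after the first search, asked for exactly 1 C or G within the A/T run. Under this rule the Acta2 window held 2 matches and the other 7 windows held none. Such a match was present in 7.24% of all windows. The RBPJ motif TGGGAA was found in the windows of Acta2 and Abcc9 and in 21.6% of all windows. Acta2 is shown for these matches, beside Rgs5 and Cspg4, the genes whose regional change in female hearts passed the test under every alternative tried. Capitals mark the relaxed CArG matches, which begin 84 and 34 bases before the start, and the RBPJ motif, which begins 27 bases before it and shares 3 letters with the second CArG match. The Rgs5 and Cspg4 windows hold neither motif and are therefore in lower case throughout.
Acta2 (chr19:34255374-34255623, minus strand): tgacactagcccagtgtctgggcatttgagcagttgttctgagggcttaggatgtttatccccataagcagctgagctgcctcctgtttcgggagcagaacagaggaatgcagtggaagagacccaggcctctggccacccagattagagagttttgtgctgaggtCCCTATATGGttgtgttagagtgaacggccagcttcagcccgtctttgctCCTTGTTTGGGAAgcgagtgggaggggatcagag
Rgs5 (chr1:169655251-169655500, plus strand): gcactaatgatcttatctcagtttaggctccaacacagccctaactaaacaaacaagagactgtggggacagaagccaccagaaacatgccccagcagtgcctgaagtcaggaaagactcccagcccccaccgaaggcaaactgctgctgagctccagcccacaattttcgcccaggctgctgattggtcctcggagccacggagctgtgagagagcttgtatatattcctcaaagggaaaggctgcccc
Cspg4 (chr9:56864854-56865103, plus strand): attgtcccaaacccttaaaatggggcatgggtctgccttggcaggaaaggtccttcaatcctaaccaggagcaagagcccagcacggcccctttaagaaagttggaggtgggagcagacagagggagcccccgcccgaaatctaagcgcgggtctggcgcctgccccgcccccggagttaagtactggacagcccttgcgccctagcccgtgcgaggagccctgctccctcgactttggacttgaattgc
The windows also differed in base composition. G and C made up 53.6% of the Acta2, Rgs5 and Mylk windows, 49.2% of the Kcnj8 window and 59.2% of the Cnn1 window. The share was 60.4% for Cspg4, 66.8% for Abcc9 and 68.8% for Notch3, against a median of 52.4% over all windows. The Notch3 window held 17 CpG dinucleotides, and those of Cspg4 and Abcc9 held 12 each. Kcnj8 had 6, Acta2 and Rgs5 had 4 each, and Cnn1 and Mylk had 3 each, with a median of 6 over all windows. These are letters in a reference window, and no measurement of binding or of chromatin bears on them here.

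Levels of different genes were set side by side after division by exon length. Acta2, the smooth muscle actin, was the most abundant with a mean of 344 ± 110 normalized CPM per kb (SD, n = 14 libraries), above Rgs5 in all 14 libraries. Rgs5, a regulator of G protein signalling enriched in pericytes, followed with 47.8 ± 21.0, and Cnn1, the actin-binding calponin, with 32.6 ± 22.4 normalized CPM per kb. Rgs5 exceeded Cnn1 in 12 of 14 libraries and Cnn1 exceeded Kcnj8 in all 14. Kcnj8 (13.9 ± 5.04), Tagln (13.3 ± 8.18) and Abcc9 (7.79 ± 2.65 normalized CPM per kb) came next. The order of the first pair among these was not settled by the libraries, since Kcnj8 lay above Tagln in only 8 of 14. The lower end was formed by Mylk (3.01 ± 0.87), Cspg4 (1.73 ± 0.75), Notch3 (1.13 ± 0.36) and Myh11 (0.32 ± 0.29 normalized CPM per kb). Myh11, the smooth muscle myosin heavy chain and the most restricted of the contractile markers, thus stood far below Acta2 per length. Its largest count was 155 reads, in the library of unsettled region, and in 2 libraries no read was recorded. Acta2 alone made up between 46.7% and 66.9% of the summed normalized CPM of the 10 genes. The lowest share was that of the library of unsettled region, and the lowest in a library of settled region was 53.1%.

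**Figure D1:**
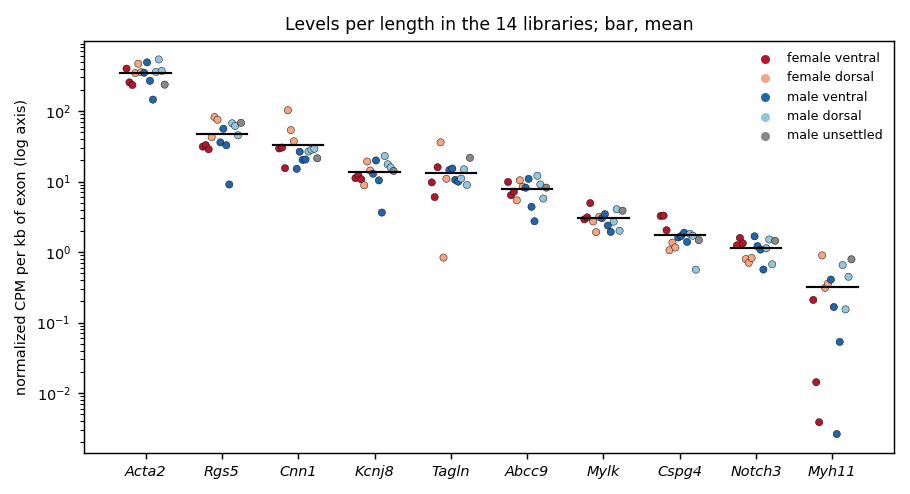
Normalized CPM per kb of exon (log axis) of the 10 markers, ordered by their mean over 14 libraries (black bars), with each point a library coloured by its group. Acta2 lies above every other marker in all libraries, and the Myh11 points that fall far below the rest are libraries with at most 1 read.

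The first question was whether the contractile genes differ between the ventral and the dorsal layer. In female hearts Cnn1 and Myh11 were lower ventrally, and Acta2, Tagln and Mylk did not pass the test. Changes are given as the log2 change of (normalized CPM + 1), ventral minus dorsal, with the standard error (SE) and the adjusted p of limma over 14411 genes, called under 0.05. Over all 10 markers 3 were called lower ventrally, where 13.3% of all genes tested were called higher dorsally, and 2 were called higher ventrally, where 14.5% of all genes were. The ventral and dorsal libraries did not overlap for these 5 markers, and did not overlap for 44.8% of all genes. The median change of the 10 markers was -0.13, and that of all genes was 0.01.

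Cnn1 (ENSMUSG00000001349, chr9:22099216-22109630, plus strand) encodes calponin, which slows the myosin ATPase of smooth muscle. It measured 80.6, 83.0 and 42.3 normalized CPM in ventral libraries 1 to 3 and 281, 147 and 102 in dorsal libraries 1 to 3. Every dorsal library was above every ventral one, with dorsal library 1 far above the other dorsal ones. The means were 68.7 ± 22.8 ventrally and 177 ± 93.1 dorsally (SD, n = 3 each), a 2.57-fold difference, and the log2 change was -1.28 (SE 0.36, limma adjusted p = 0.0251). Without dorsal library 1, which carried the most atrial RNA, the change was -0.89 and the adjusted p of limma was 0.0584. The call was also lost without dorsal library 2 (-1.35, limma adjusted p = 0.0524) and without ventral library 3 (-0.97, limma adjusted p = 0.0866). With all libraries it was lost in limma with no mean-variance trend.

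Myh11 (ENSMUSG00000018830, chr16:14194535-14291372, minus strand) was counted in 30, 1 and 0 reads in the female ventral libraries, or 1.59, 0.11 and 0.03 normalized CPM. The dorsal libraries held 147, 43 and 54 reads, or 6.81, 2.37 and 2.72 normalized CPM. The groups did not overlap, but ventral libraries 2 and 3 lay under the floor of 3 reads, so the size of the change depends on the added 1. The log2 change was -1.68 (SE 0.47, limma adjusted p = 0.0258), and the call was lost in the count tests on whole reads (edgeR adjusted p = 0.123, limma voom adjusted p = 0.0552). It was lost as well without ventral library 2 (-1.50, limma adjusted p = 0.0945), ventral library 3 (-1.44, limma adjusted p = 0.0823) or dorsal library 1 (-1.30, limma adjusted p = 0.0806).

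Acta2 (ENSMUSG00000035783, chr19:34241090-34255590, minus strand) measured 878, 560 and 514 normalized CPM ventrally and 759, 1030 and 781 dorsally. The groups overlapped through ventral library 1, and the log2 change was -0.42 (SE 0.23, limma adjusted p = 0.189), and -0.50 without dorsal library 1. Leaving out ventral library 1 gave -0.66 with a limma adjusted p of 0.038.

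Mylk (ENSMUSG00000022836, chr16:34745210-35002420, plus strand), the kinase that phosphorylates myosin light chains and starts contraction, measured 32.7, 35.0 and 55.7 normalized CPM ventrally and 30.6, 21.6 and 35.5 dorsally. The groups overlapped, although the ventral library was higher in all 3 pools (log2 change 0.47, SE 0.25, limma adjusted p = 0.187).

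Tagln (ENSMUSG00000032085, chr9:45929619-45936058, minus strand) encodes transgelin, an actin-bundling protein of early smooth muscle. Of the 10 in female hearts its log2 change had the largest SE. The largest SD relative to a group mean was that of Myh11 (153% ventrally), above that of Tagln (114% dorsally). Tagln measured 19.3, 12.0 and 31.8 normalized CPM ventrally and 71.5, 1.66 and 21.7 dorsally. Dorsal libraries 1 and 2 held 1548 and 30 reads. The log2 change of 0.33 had an SE of 0.94 (limma adjusted p = 0.825), and it was 1.40 without dorsal library 1, -0.98 without dorsal library 2 and -0.63 in edgeR. Tagln shares 62.4% of its exon bases with Gm48529, an antisense gene on the plus strand, and 56.3% of its windows of 60 bases also occur in other annotated transcripts. Counting by strand is not stated in the sources used here, so reads of the overlapping genes cannot be told apart. Gm48529 itself was listed at 0.10 to 1.87 normalized CPM.

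**Figure D2:**
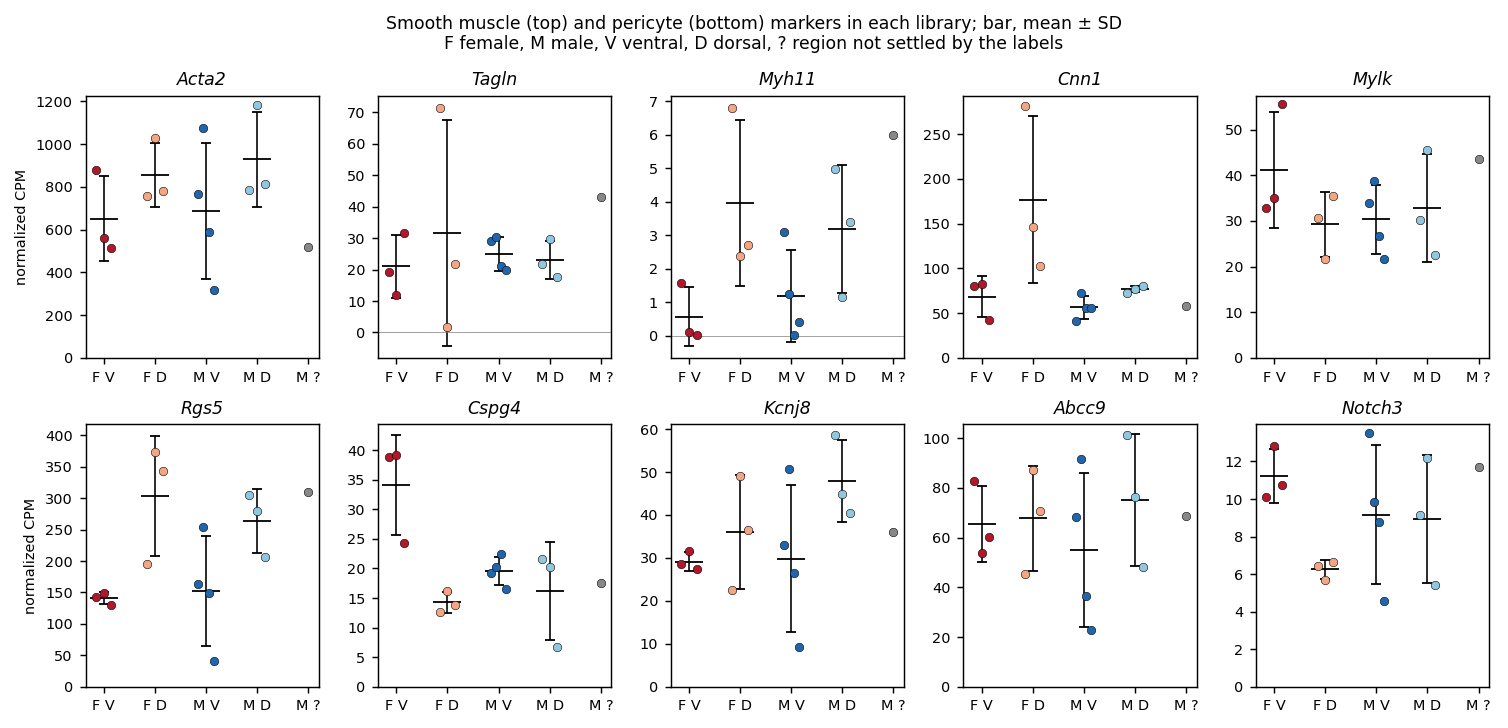
Normalized CPM of the 10 markers in each library (points), with group means and SD (bars), for female ventral (F V), female dorsal (F D), male ventral (M V), male dorsal (M D) and the male library of unsettled region (M ?). Ventral and dorsal points of female hearts are apart for Myh11, Cnn1, Rgs5, Cspg4 and Notch3, and male ventral library 7 is the lowest male ventral point for every marker but Myh11 and Cnn1.

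The pericyte genes of female hearts moved in both directions. Rgs5 was lower ventrally, Cspg4 and Notch3 were higher ventrally, and the paired channel genes Kcnj8 and Abcc9 did not pass the test. Rgs5 and Cspg4 were called under all 17 alternatives, including each library left out in turn.

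Rgs5 (ENSMUSG00000026678, chr1:169655501-169695813, plus strand) measured 142, 149 and 130 normalized CPM in the ventral libraries and 195, 374 and 343 in the dorsal ones. The ventral values lay close together, with an SD of 9.59 around a mean of 141, and all 3 dorsal libraries were above them. The dorsal mean of 304 ± 95.8 (SD, n = 3) was 2.16 times the ventral mean, with a log2 change of -1.05 (SE 0.22, limma adjusted p = 0.00847). Over the alternatives the adjusted p was between 0.00126 and 0.0345.

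Cspg4 (ENSMUSG00000032911, chr9:56865033-56899870, plus strand) encodes the proteoglycan NG2 on the surface of pericytes and immature smooth muscle. It measured 38.8, 39.2 and 24.4 normalized CPM ventrally and 12.7, 16.3 and 13.8 dorsally, so each ventral library was above every dorsal one. The ventral mean of 34.1 ± 8.45 was 2.39 times the dorsal mean of 14.3 ± 1.82 (SD, n = 3 each). The log2 change was 1.18 (SE 0.23, limma adjusted p = 0.00579), with adjusted p between 0.00357 and 0.0486 over the alternatives.

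Notch3 (ENSMUSG00000038146, chr17:32120820-32166852, minus strand), the Notch receptor of mural cells, measured 10.1, 12.8 and 10.8 normalized CPM ventrally and 6.44, 5.69 and 6.66 dorsally. The groups did not overlap, and the ventral mean was 1.79 times the dorsal mean. The log2 change of 0.75 (SE 0.25, limma adjusted p = 0.0498) lay at the edge of the threshold. Of 16 alternatives 14 lost the call, with adjusted p of up to 0.313, and with the pool number as a block the adjusted p of limma was 0.0691.

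Kcnj8 (ENSMUSG00000030247, chr6:142564837-142571614, minus strand) and Abcc9 (ENSMUSG00000030249, chr6:142587862-142702315, minus strand) encode the pore Kir6.1 and the sulphonylurea receptor SUR2, which together form the ATP-sensitive potassium (KATP) channel of vascular smooth muscle and pericytes. Kcnj8 measured 28.5, 31.6 and 27.4 normalized CPM ventrally and 22.6, 49.0 and 36.5 dorsally in female hearts. Abcc9 measured 82.7, 53.7 and 60.2 ventrally and 45.4, 87.3 and 70.7 dorsally. Both sets overlapped, with log2 changes of -0.23 (SE 0.26, limma adjusted p = 0.529) for Kcnj8 and -0.02 (SE 0.25, limma adjusted p = 0.955) for Abcc9. Without dorsal library 1 the changes were -0.53 (limma adjusted p = 0.0886) and -0.28 (limma adjusted p = 0.352).

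**Figure D3:**
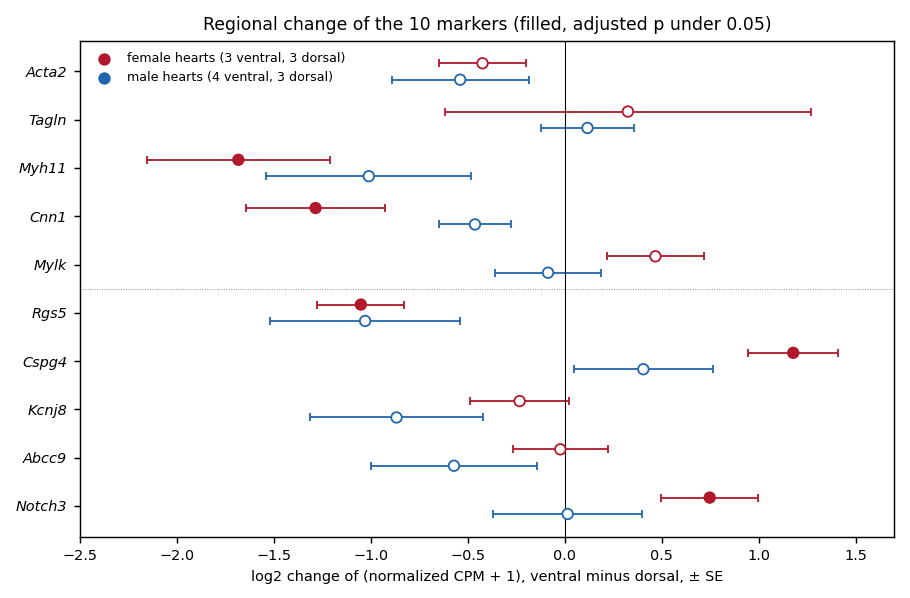
Log2 change of (normalized CPM + 1), ventral minus dorsal, with SE, for each marker in female (red) and male (blue) hearts, where filled points passed an adjusted p of 0.05. Filled points are Myh11, Cnn1 and Rgs5 to the left and Cspg4 and Notch3 to the right, all in female hearts, and no marker is filled in male hearts.

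In male hearts no marker passed the limma test, and 0.0% of the 14917 genes tested did. Cnn1 was the only marker with an unadjusted p under 0.05, edgeR and limma voom called none, and 2083 genes had an unadjusted p under 0.05. With the pool number as a block, which leaves out ventral library 7, 91 genes were called, none of them a marker. Of the 10 markers 7 had a change below 0 and 3 above 0, with a median of -0.50 against 0.03 over all genes. Without ventral library 7, as given below, the changes of Acta2, Rgs5, Myh11, Kcnj8 and Abcc9 were nearer to 0. That of Mylk changed sign, that of Cnn1 hardly moved and the 3 above 0 rose. Every dorsal library was above every ventral one for 1 of the 10 markers and for 7.82% of all genes.

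That marker was Cnn1, with 41.5, 72.4, 55.5 and 56.2 normalized CPM in male ventral libraries 4 to 7 and 73.0, 77.3 and 79.9 in dorsal libraries 4 to 6. The lowest dorsal value exceeded the highest ventral value by less than the spread within either group, and the log2 change was -0.46 (SE 0.19, limma adjusted p = 0.32), and -0.47 without ventral library 7. Rgs5 measured 163, 255, 149 and 41.3 normalized CPM ventrally and 305, 279 and 206 dorsally. The dorsal library was higher in each of the 3 pools with both layers, and the log2 change was -1.03 (SE 0.49, limma adjusted p = 0.38). Without ventral library 7 it was -0.50 (limma adjusted p = 0.518).

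Myh11 was counted in 60, 31, 0 and 9 reads in the male ventral libraries and in 74, 28 and 71 reads in the dorsal ones, with a log2 change of -1.01 (SE 0.53, limma adjusted p = 0.411), and -0.86 without ventral library 7. Acta2 measured 766, 1076, 589 and 319 normalized CPM ventrally and 787, 1184 and 815 dorsally. The ventral library was the lower in all 3 pools and the groups overlapped (log2 change -0.54, SE 0.35, limma adjusted p = 0.5). Ventral library 7 held the lowest Acta2 value of the study, and without it the change was -0.21 (limma adjusted p = 0.789).

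The KATP channel genes leaned on the same library. Kcnj8 measured 32.9, 50.8, 26.5 and 9.25 normalized CPM ventrally and 58.6, 44.8 and 40.4 dorsally (log2 change -0.87, SE 0.45, limma adjusted p = 0.408). Abcc9 measured 68.4, 91.4, 36.7 and 22.9 ventrally and 101, 76.1 and 48.1 dorsally (log2 change -0.57, SE 0.43, limma adjusted p = 0.555). Without ventral library 7 the changes were -0.41 and -0.23.

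Cspg4 and Notch3, higher ventrally in female hearts, overlapped between the male layers. Cspg4 measured 19.2, 20.2, 22.4 and 16.6 normalized CPM ventrally and 21.6, 20.3 and 6.71 dorsally, where dorsal library 6 was far below the rest (log2 change 0.41, SE 0.36, limma adjusted p = 0.62). Without it the change was -0.10. Notch3 measured 13.5, 9.84, 8.76 and 4.57 ventrally and 9.17, 12.2 and 5.43 dorsally (log2 change 0.01, SE 0.38, limma adjusted p = 0.991). Tagln and Mylk had log2 changes of 0.12 (SE 0.24) and -0.09 (SE 0.27). Without ventral library 7 the changes were 0.48 for Cspg4, 0.28 for Notch3, 0.22 for Tagln and 0.057 for Mylk, so that of Mylk changed sign. The library of unsettled region held 6.01 normalized CPM of Myh11 and 43.2 of Tagln, above every settled male library for both genes, and 309 of Rgs5.

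Taking both sexes in a single fit with sex as a covariate (7 ventral, 6 dorsal libraries), 3 markers were called lower ventrally, against 9.06% of all genes called higher dorsally, and 1 higher ventrally, against 9.8% of all genes. Cnn1 (-0.85, SE 0.24, limma adjusted p = 0.0248), Myh11 (-1.32, SE 0.38, limma adjusted p = 0.0263) and Rgs5 (-1.04, SE 0.31, limma adjusted p = 0.0298) were lower ventrally. Cspg4 was higher ventrally (0.77, SE 0.25, limma adjusted p = 0.0425). These 4 calls rested on few libraries. None was kept without female ventral library 3, where the limma adjusted p was between 0.0538 and 0.0628, and 1 was kept without female ventral library 2 or without female dorsal library 2. Without female dorsal library 1 or 3, male ventral library 6 or male dorsal library 4, 2 were kept each time. Acta2 (-0.49, SE 0.23, limma adjusted p = 0.15), Kcnj8 (-0.57, SE 0.30, limma adjusted p = 0.187) and Notch3 (0.36, SE 0.25, limma adjusted p = 0.33) did not pass.

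Whether the regional change differed between the sexes was tested directly, as male minus female. No marker passed in limma, edgeR or limma voom, none had an unadjusted p under 0.05, and 2.73% of all genes passed in limma. The largest differences were those of Cnn1 (0.82, SE 0.44, limma adjusted p = 0.394) and Cspg4 (-0.77, SE 0.46, limma adjusted p = 0.456). Without male dorsal library 6 the difference of Cspg4 was -1.28 with a limma adjusted p of 0.045. So a call in female hearts beside none in male hearts was not shown to be a difference between the sexes for any of the 10 with all libraries. Male and female levels over both layers did not differ by the limma test for any marker either, while 10.9% of all genes were called, and edgeR and limma voom also called none. Cnn1 alone had an unadjusted p under 0.05 (-0.63, SE 0.24, limma adjusted p = 0.106), and without female ventral library 3 its adjusted p was 0.0288. Male libraries come only from pools 4 to 7 and female ones only from pools 1 to 3, so sex and pool series cannot be told apart. The fit of male against female took the layers of a pool as independent libraries, also for the related genes below.

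The 10 markers did not vary together across libraries. Among their 45 pairs Pearson's r of log2 values over the 14 libraries was between -0.51 (Myh11 and Cspg4) and 0.89 (Rgs5 and Kcnj8), and it was above 0 for 30 pairs. The libraries share their layers, sexes and pools, so these are descriptions. Kcnj8 and Abcc9, whose gene bodies lie 16247 bases apart on chromosome 6, had an r of 0.87 (Spearman's rho 0.82), and 0.73 without male ventral library 7. The ratio of Abcc9 to Kcnj8 in normalized CPM was between 1.19 and 2.90 with a median of 1.85. Mylk went with Notch3 (r = 0.75) and Cspg4 with Notch3 (r = 0.65).

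Several markers went with the genes of ventricular cardiomyocytes and of blood endothelium. With the summed cardiomyocyte level r was 0.89 for Kcnj8, 0.89 for Abcc9, 0.84 for Rgs5 and 0.79 for Acta2, and without male ventral library 7 it was 0.80, 0.79, 0.70 and 0.64. It was 0.60 for Myh11, 0.24 for Cnn1, 0.22 for Notch3, 0.05 for Mylk, -0.08 for Cspg4 and -0.29 for Tagln. Without that library it was 0.57, 0.15, -0.18, -0.32, -0.18 and -0.41 in the same order. With the summed blood endothelial genes r was 0.85 for Kcnj8, 0.80 for Abcc9, 0.81 for Rgs5 and 0.69 for Acta2. These values rested more on male ventral library 7, without which they were 0.50, 0.56, 0.40 and 0.28. The summed cardiomyocyte level was between 19251 and 27653 normalized CPM in female ventral libraries, between 21719 and 34689 in female dorsal ones, between 13571 and 27532 in male ventral ones and between 27328 and 36388 in male dorsal ones. It was thus higher in every male dorsal library than in the median male ventral library, and its part in the marker levels was not tested. Cnn1 went inversely with the summed epicardial genes (r = -0.81, Spearman's rho -0.64), and nearly as much with the macrophage (r = -0.78) and fibroblast genes (r = -0.74).

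**Figure D4:**
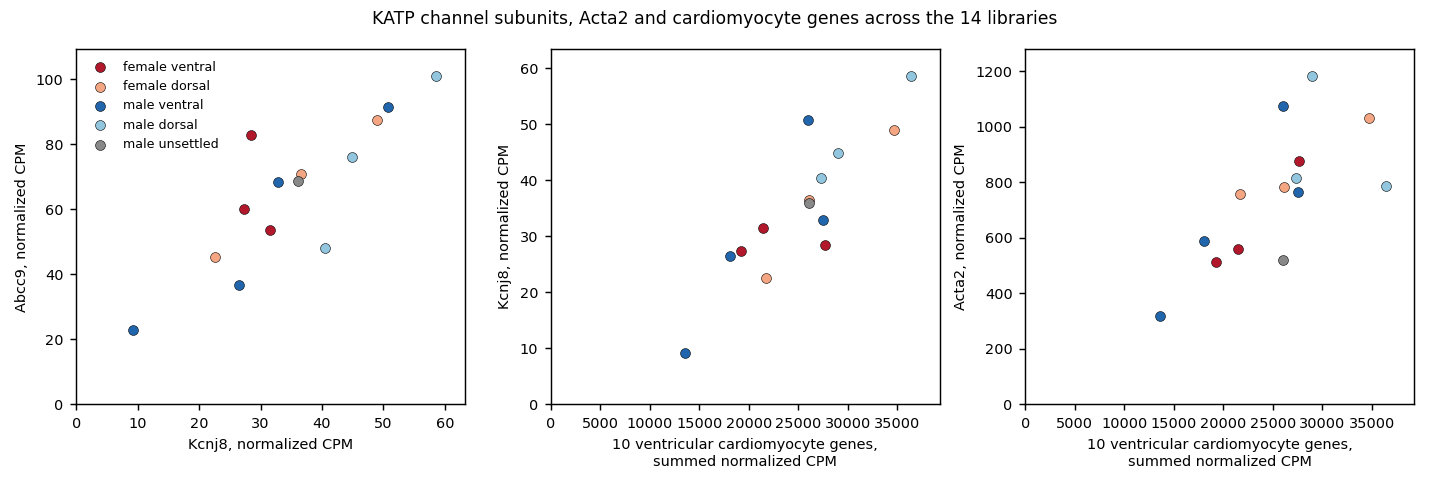
Each point is a library, coloured by group, with Abcc9 against Kcnj8 (left) and Kcnj8 or Acta2 against the summed normalized CPM of 10 ventricular cardiomyocyte genes (middle and right). Male ventral library 7 is the lowest point in all 3 panels, and Abcc9 and Kcnj8 rise together with a ratio between 1.19 and 2.90.

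Among 11321 genes with a mean of at least 5 normalized CPM, the profiles nearest to Acta2 were those of Cox6a2 (r = 0.91), Ndufa4 (0.90), Cox5a (0.88), Cav3 (0.87) and Popdc2 (0.87). Cox6a2 is the heart and muscle form of a cytochrome oxidase subunit, and Cav3 and Popdc2 are proteins of the striated muscle membrane. The profiles nearest to Rgs5 were those of Tmem255a (r = 0.95), Clec14a (0.93), Aplnr (0.93), Aqp4 (0.92) and Fastkd2 (0.92), of which Clec14a and Aplnr are known from endothelium. Abcc9 was nearest to Trib2 (r = 0.91), Cdh2 (0.89), Bcl6b (0.89), Pmf1 (0.89) and D830005E20Rik (0.88). Myh11 was nearest to Grb14 (r = 0.88), Cyb5b (0.86), Noc4l (0.84), Grwd1 (0.84) and Unc45b (0.83). Each r is over the same 14 libraries, among them male ventral library 7, and none was computed without that library. For Myh11, female ventral libraries 2 and 3 and male ventral library 6 held at most 1 read.

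Genes related to the markers were followed in 4 lists. The shares of all genes called, beside which their counts stand, were 14.5% higher ventrally and 13.3% higher dorsally in female hearts, 9.8% and 9.06% over both sexes, and 10.9% between the sexes. The first list held 15 further genes of the contractile apparatus. In female hearts 14 were tested, 2 rose and 1 fell ventrally, shares near those of all genes, and 11 did not pass, with a median log2 change of 0.19. Csrp1, a LIM protein of smooth muscle, fell by 3.17 on the log2 scale (SE 0.15, limma adjusted p = 2.19e-05). Normalized CPM of Csrp1 were 15.2, 18.98 and 15.9 in ventral and 161, 146 and 164 in dorsal libraries of female hearts, while all male libraries lay between 15.4 and 35.2. Its regional change differed between the sexes by 3.65 (SE 0.31, limma adjusted p = 5.08e-05), so the high values were those of the 3 female dorsal libraries. Cald1, the actin-binding caldesmon, rose by 1.12 (SE 0.18, limma adjusted p = 0.00242), and Smtn (smoothelin) rose by 0.62 (SE 0.20, limma adjusted p = 0.0411). In male hearts none of 15 was called. Over both sexes Cald1 (0.67) and Ppp1r14a (0.85), an inhibitor of myosin phosphatase, were higher and Myl9 (-0.86), the regulatory light chain, was lower ventrally. Smtn was higher in male hearts (0.87).

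Of 6 regulators of contractile genes, 2 rose and 2 fell ventrally in female hearts, against 14.5% and 13.3% of all genes. Klf4, a repressor of the smooth muscle programme, rose by 1.62 (SE 0.20, limma adjusted p = 0.000895), and Mrtfa, an SRF partner that responds to actin, rose by 0.84 (SE 0.28, limma adjusted p = 0.0497). Fhl2, a LIM cofactor, fell by 0.94 (SE 0.19, limma adjusted p = 0.00639), Myocd fell by 0.72 (SE 0.23, limma adjusted p = 0.0408), and Srf and Mrtfb did not pass. Myocd is also a cardiomyocyte gene. The median of the list was 0.08. Over both sexes Klf4 (1.15) and Fhl2 (-0.70) were called, and in male hearts none was.

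Among 15 receptors and pericyte partners, 4 rose and 2 fell ventrally in female hearts (14.5% and 13.3% of all genes), with 9 not called and a median of 0.19. The endothelin receptor gene Ednra fell by 1.72 (SE 0.16, limma adjusted p = 0.000334), from 127, 99.5 and 89.3 normalized CPM in the dorsal libraries to 30.6, 32.4 and 29.7 in the ventral ones. Anpep, which encodes CD13 on pericytes and fibroblasts, rose by 1.24 (SE 0.32, limma adjusted p = 0.0201), and the forkhead gene Foxs1 of vascular mural cells rose by 1.23 (SE 0.31, limma adjusted p = 0.0173). Over both sexes 2 were higher (9.8% of all genes), among them Anpep (0.91), and 3 lower ventrally (9.06% of all genes), among them Steap4 (-1.14) and Ednra (-1.11). None was called in male hearts, and 2, Ndufa4l2 (0.79) and Foxs1 (0.73), were higher in male than in female hearts.

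The Notch pathway list of 13 genes had 1 rise and 3 falls ventrally in female hearts (14.5% and 13.3% of all genes), with 9 not called and a median of -0.34. The receptor gene Notch2 rose by 1.0 (SE 0.19, limma adjusted p = 0.00558), as Notch3 did at the edge of the threshold. Of the 5 transcriptional targets on the list 3 fell, while Hey2 (-0.22, SE 0.28) and Heyl (-0.54, SE 0.30) did not pass. Hey1 fell by 1.74 (SE 0.53, limma adjusted p = 0.0362), Nrarp fell by 1.54 (SE 0.22, limma adjusted p = 0.00163) and Hes1 fell by 1.19 (SE 0.15, limma adjusted p = 0.000895). The ligand genes Jag1, Jag2, Dll1 and Dll4 did not pass. Hes1 measured 26.9, 27.8 and 25.4 normalized CPM in female ventral libraries and 64.4, 55.9 and 66.3 in dorsal ones, and its regional change differed between the sexes (1.74, SE 0.39, limma adjusted p = 0.0272). Over both sexes Notch2 (0.83) was higher and Hey1 (-1.30) and Nrarp (-0.92) were lower ventrally. In male hearts none passed, and Hes1 (-1.52), Nrarp (-1.49) and Notch4 (-0.86) were among 4 genes of the list lower in male than in female hearts.

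**Figure D5:**
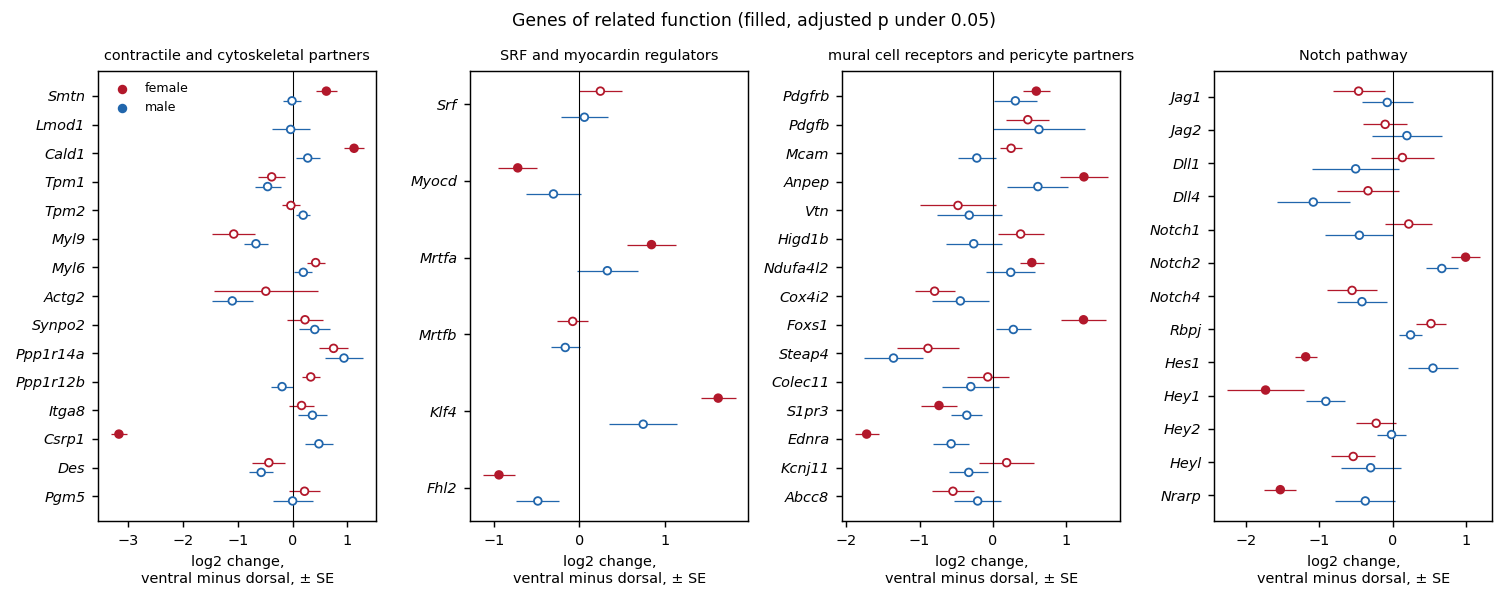
Log2 change of (normalized CPM + 1), ventral minus dorsal, with SE, for the 4 lists of related genes in female (red) and male (blue) hearts, where filled points passed an adjusted p of 0.05. Csrp1, Ednra, Hey1 and Nrarp lie furthest to the left and Klf4 furthest to the right in female hearts, and no gene of the 4 lists is filled in male hearts.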

How the data were processed

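Per the labels and the study's methods, the authors trimmed adapters from single reads of 60 bases with cutadapt, quantified genes with RSEM on GRCm38 and normalized with limma. The deposited values are a signal scaled to library size (normalized CPM), from which whole reads were recovered for 100.0% of values (tolerance 0.02 reads, offset 0.5). Libraries held 13918995 to 25221314 such reads, and 3 reads were taken as the floor. Regions and sexes were compared by linear models fitted with limma 3.58.1 and moderated with a mean-variance trend (R 4.3.3). Values were transformed as log2(value + 1) and genes reaching 1 in 3 or more libraries were kept, with Benjamini-Hochberg adjustment over all genes tested and a threshold of 0.05. The pseudocount compresses changes of low genes. P-values measure the spread between libraries, each of a pool of 2 hearts. Male against female was tested on 13 libraries from fewer pools, with the layers of a pool taken as independent. Positions and exon lengths came from GENCODE M21, promoter sequences from RefSeq.

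Each library was left out in turn. Other alternatives changed the pseudocount (0.1), the filter (none, or a mean of 10 or more), the scaling (quantile normalization or median of ratios) or the test (edgeR 4.0.16, limma with no trend), took out the dependence on length and GC content, or placed the unsettled library in either layer. Sexes were also compared without a term for layer on all 14 libraries, and on pool means. Limma voom was added after the data had been seen. Pool numbers are shared by layers, and libraries of a number deviated together from their group means (correlations between 0.169 and 0.427), so they were used as a block in an alternative. The code was tested on simulated data. The 10 markers and all lists were chosen with earlier results of these data known. All 10 are named, and up to 3 called genes per list and comparison, by size, with Myocd and Notch2 added after their values were seen.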

Additional observations from a re-analysis of the deposited data

How the results depend on the processing

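The number of markers called in female hearts was 5. It was 3 when a mean of 10 or more was required, which removes Myh11 and Notch3, 3 with edgeR and 3 with limma voom, and it was between 2 and 5 when each library was left out. Over both sexes 4 were called, and 2 without trend, with edgeR, after removal of the GC and length trend or with the unsettled library as ventral, and between 0 and 4 with each library left out. In male hearts 0 were called under each alternative. For the difference between the sexes and for male against female hearts 0 were called, and between 0 and 1 with each library left out. With the pool number as a block, markers called numbered 4 in female hearts, 0 in male hearts and 4 over both sexes, and among all genes the count rose from 0 to 91 in male hearts (35 with the GC and length trend also removed) and from 431 to 817 for the difference between the sexes. The block changed the call of Notch3 alone.

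Signs changed only for values that had not passed a test. In female hearts these were Tagln (-0.63 with edgeR, and between -0.98 and 1.40 with a library left out), Kcnj8 (between -0.53 and 0.018 with a library left out, the latter without dorsal library 2) and Abcc9 (0.089 with quantile normalization, and between -0.28 and 0.18 with a library left out). In male hearts they were Tagln (-0.11 with the unsettled library as dorsal, and between -0.049 and 0.31 with a library left out), Mylk (0.057 with the block, 0.022 with the unsettled library as ventral, and between -0.32 and 0.17 with a library left out), Cspg4 (between -0.097 and 0.68 with a library left out) and Notch3 (-0.12 with quantile normalization, -0.17 with the trend removed, -0.019 with limma voom, -0.088 with the unsettled library as dorsal, and between -0.27 and 0.28 with a library left out). Over both sexes they were Tagln (-0.22 with edgeR, and between -0.34 and 0.65 with a library left out) and Mylk (-0.017 with the trend removed). The cause was not tested. Myh11 stood at 0 or 1 read in 3 libraries, so its changes rest on few reads.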
